A study of Mus musculus with 8 samples.

Results

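The type I interferon-stimulated genes described here were 44 genes named by symbol and read in blood monocytes of mice. All probe sets whose platform annotation gives exactly one of these symbols were taken, which gave 72 probe sets for 42 genes. No such probe set was found for Isg15 and Ifi44. The arrays name 18193 genes in all in this way. The cells were Gr1hi (Ly-6chi) monocytes and Gr1lo (Ly-6clo) monocytes from C57Bl/6 mice aged 12 weeks. Each sample was 1 sort from the pooled leukocytes of 5 mice, and 4 separate sorts gave 4 samples of each subset, each on its own Affymetrix array. The labels give no treatment, and the purity of the sorts is not given in the sources used here. The series compares the main monocyte subsets of mouse and human, and the comparison below is Gr1hi against Gr1lo, with differences as Gr1hi minus Gr1lo; human samples were not analysed here.

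Type I interferons bind the receptor chains Ifnar1 and Ifnar2, which act through the kinases Jak1 and Tyk2 to assemble a complex that includes Stat2 and Irf9. That complex binds the interferon-stimulated response element in promoters and switches on a large set of antiviral genes, many of which are also transcribed at a basal level without infection. Classical monocytes, the Gr1hi cells, are recruited to sites of inflammation, and nonclassical monocytes, the Gr1lo cells, crawl along the inner wall of blood vessels.

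Most of the interferon-stimulated genes were higher in Gr1hi monocytes, with the Ifit genes, Usp18, Oasl2 and Gbp3 showing more than 3-fold differences. Of the 4 Ifitm genes, 1 was higher in Gr1lo and 3 were not called. Each of the 42 genes with a probe set passed the filter on dim signal, which asked for an intensity above the median of the table in at least 4 of the 8 arrays. Of these 42 genes, 33 were called higher in Gr1hi, 1 was called higher in Gr1lo and 8 were not called (limma, Benjamini-Hochberg adjusted p under 0.05 over all 22831 probe sets tested). Of all 11546 genes tested, 18.5% were called higher in Gr1hi and 14.1% higher in Gr1lo. The difference was at least 2-fold toward Gr1hi for 15 of the 42 genes, against 2.20% of all genes tested. The median log2 difference, Gr1hi minus Gr1lo, was 0.83 over the 42 genes and 0.01 over all genes tested, and 41 of the 42 differences were positive. The 4 Gr1hi arrays all lay above the 4 Gr1lo arrays for 35 of the 42 genes, against 19.2% of all genes tested. The reverse held for 1 gene, Ifitm1, against 14.7% of all genes tested. In these bulk samples, fewer cells that express a gene and less RNA of it per cell cannot be told apart.

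**Figure D1:**
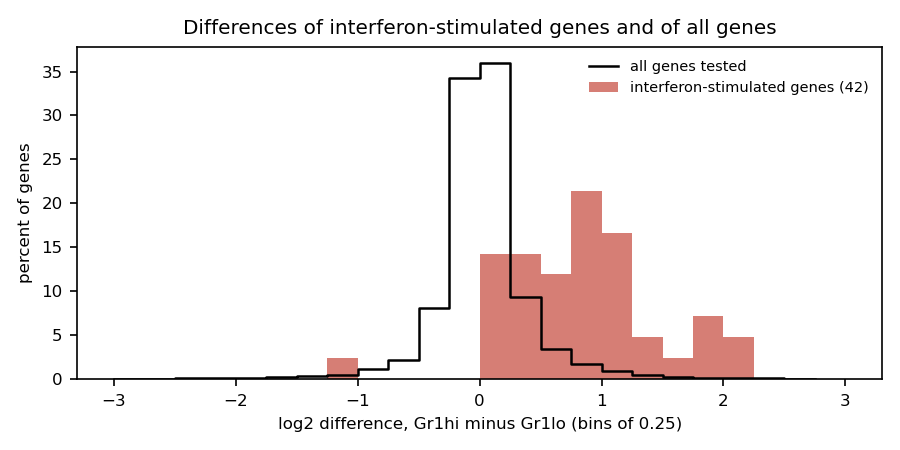
Percent of genes (vertical axis) in bins of the log2 difference Gr1hi minus Gr1lo (horizontal axis), for the 42 interferon-stimulated genes (filled bars) and all 11546 genes tested (line). The bars lie to the right of 0 except for Ifitm1, and the line peaks around 0.

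**Figure D2:**
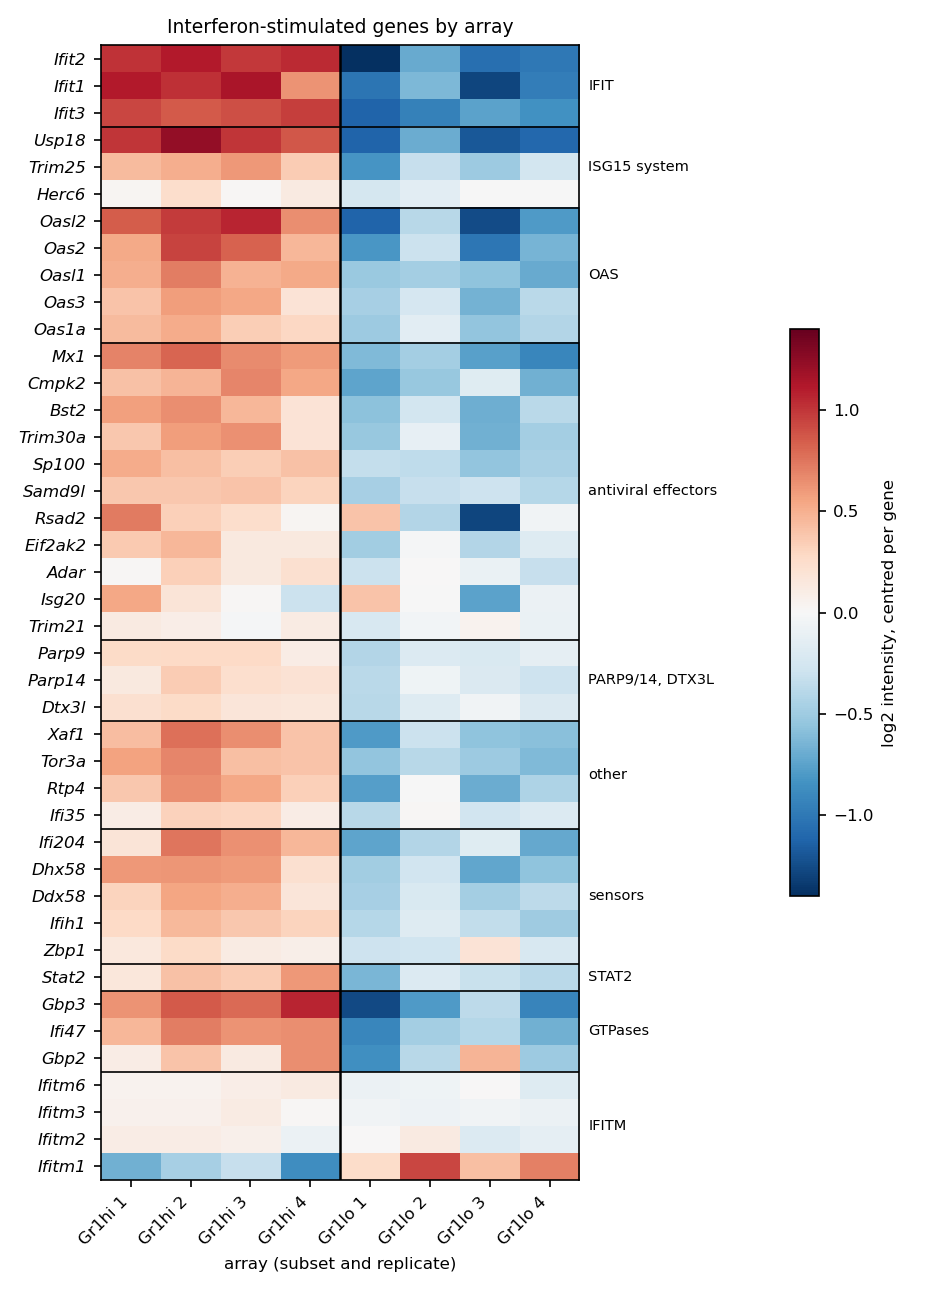
Log2 intensity of each of the 42 genes on each of the 8 arrays, minus that gene's mean over all arrays, with Gr1hi arrays on the left, Gr1lo arrays on the right and genes grouped by role. Most rows are above their mean in all Gr1hi arrays and below it in all Gr1lo arrays, the Ifitm rows are close to 0 or turned the other way, and Rsad2, Isg20, Gbp2 and Zbp1 are uneven among the Gr1lo arrays.

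The promoters of these genes were searched because the complex that includes Stat2 and Irf9 binds a known element in promoters. The motif was the core of the interferon-stimulated response element, GAAANNGAAA, read on both strands with overlapping matches counted, in the RefSeq window from 250 bases before to 50 bases after the start of each gene (GRCm38.p6). A promoter was listed for 34 of the 44 genes, matched by symbol, and 17 of those 34 held the motif at 1 or more of their listed starts. Of all 27025 genes with a listed promoter 1079 (3.99%) held it, and of all 32851 promoter windows 1131 (3.44%). Windows of 6 genes are shown to set members with pairs of matches, single matches and none beside their expression: the 160 bases before the start, 5′ to 3′ on the gene's strand, with the motif matches in capitals.
Ifit1 (chr19:34640729-34640888, plus strand): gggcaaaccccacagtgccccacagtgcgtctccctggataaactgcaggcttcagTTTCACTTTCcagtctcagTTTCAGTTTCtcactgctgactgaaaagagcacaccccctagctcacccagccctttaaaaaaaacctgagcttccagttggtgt
Ifit3 (chr19:34583369-34583528, plus strand): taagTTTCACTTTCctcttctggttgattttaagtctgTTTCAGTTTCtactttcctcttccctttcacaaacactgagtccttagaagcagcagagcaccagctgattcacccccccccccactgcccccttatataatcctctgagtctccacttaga
Gbp3 (chr3:142559884-142560043, plus strand): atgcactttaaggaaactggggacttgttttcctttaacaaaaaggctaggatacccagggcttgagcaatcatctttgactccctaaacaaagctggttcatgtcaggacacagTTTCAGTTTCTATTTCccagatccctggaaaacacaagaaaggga
Oas3 (chr5:120777660-120777819, minus strand): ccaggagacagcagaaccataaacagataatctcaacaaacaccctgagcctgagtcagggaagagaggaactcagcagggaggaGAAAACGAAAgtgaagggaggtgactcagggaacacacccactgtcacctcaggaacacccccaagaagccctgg
Ifitm2 (chr7:140955962-140956121, minus strand): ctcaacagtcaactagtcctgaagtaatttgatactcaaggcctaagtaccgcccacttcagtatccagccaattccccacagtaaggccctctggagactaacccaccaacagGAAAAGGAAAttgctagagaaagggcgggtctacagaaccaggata
Ifitm1 (chr7:140967916-140968075, plus strand): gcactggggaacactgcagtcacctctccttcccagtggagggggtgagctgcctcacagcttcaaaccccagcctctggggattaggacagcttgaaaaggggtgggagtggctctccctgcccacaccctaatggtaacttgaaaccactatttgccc

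The Ifit1 and Ifit3 windows each held 2 separate matches, whose first bases lay 104 and 85 bases before the start in Ifit1 and 156 and 122 bases before it in Ifit3. In Gbp3 2 overlapping matches ran together, 45 and 39 bases before the first of its listed starts. Of the measured genes, 11 of 16 with a match and 12 of 16 without one were called higher in Gr1hi, with median log2 differences of 0.77 and 0.79, so calls were about as frequent in both. Ifit2, Oasl1, Oasl2, Ifi47, Xaf1 and Cmpk2, all at least 2-fold higher in Gr1hi, held no match in their windows. Rsad2, Trim21, Gbp2, Ifitm2 and Ifitm3 held matches and were not called. A match is a run of letters and not a measured binding site, and no match says only that these letters are not in this window.

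The Ifit genes encode tetratricopeptide repeat proteins that bind viral RNA and hinder its translation, and all 3 were higher in Gr1hi by 3.56-fold to 4.22-fold. Ifit2 stood at log2 intensities of 9.27, 9.37, 9.26 and 9.30 in the Gr1hi arrays, against 6.87, 7.56, 7.20 and 7.26 in the Gr1lo arrays. Its difference of 2.08 (SE 0.12, limma adjusted p = 1.7e-07) ranked 41 of 11546 genes toward Gr1hi. Ifit3, with 10.20, 10.12, 10.16 and 10.24 in Gr1hi and 8.14, 8.32, 8.52 and 8.42 in Gr1lo, had the smallest difference of the 3 (1.83, SE 0.08). Neither gene showed overlap, and the gap between the subsets was several times the spread within either. Ifit1 differed by 1.95 (SE 0.14), and its Gr1hi replicate 4, at 8.36, lay below the other Gr1hi arrays at 8.76 to 8.88. The 3 Ifit genes lie beside each other on chromosome 19.

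Isg15 is a ubiquitin-like protein that is attached to other proteins during an interferon response. Usp18 removes Isg15 and restrains signalling at Ifnar2, so it is both a product and a brake of the pathway. It stood at 9.55, 9.77, 9.54 and 9.41 in Gr1hi, against 7.42, 7.85, 7.36 and 7.44 in Gr1lo, a 4.13-fold difference (log2 difference 2.05, SE 0.11, limma adjusted p = 1.3e-07). Trim25, a ubiquitin ligase that acts with the sensor Ddx58, was 1.94-fold higher in Gr1hi, and each of its 3 probe sets was called. Herc6, known in mice as the main ligase for Isg15, gave probe sets that differed in their call. Its brightest probe set read 8.18, 8.40, 8.17 and 8.28 in Gr1hi and 7.91, 8.01, 8.15 and 8.15 in Gr1lo, and was not called (difference 0.20, 95% interval 0.03 to 0.37, adjusted p = 0.075). The other 3 Herc6 probe sets differed by 0.58 to 0.70 and were all called higher in Gr1hi, 1 of them after passing the filter through the Gr1hi arrays alone. With the mean of its probe sets, which includes that 1, Herc6 was called (difference 0.52, limma adjusted p = 2.5e-04). The alternatives gave an adjusted p of 2.5e-04 to 0.20.

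Oligoadenylate synthetases sense double-stranded RNA, and the active enzymes of the family make the messenger that activates RNase L. All 5 measured Oas and Oasl genes were called higher in Gr1hi, 3 of them by at least 2-fold, against 18.5% and 2.20% of all genes tested. Oasl2 read 10.48, 10.61, 10.70 and 10.28 in Gr1hi against 8.51, 9.24, 8.37 and 8.84 in Gr1lo, a 3.42-fold difference (log2 difference 1.78, SE 0.16). Oas1a, the smallest, read 11.29, 11.36, 11.19 and 11.13 in Gr1hi and 10.33, 10.69, 10.29 and 10.43 in Gr1lo (log2 difference 0.81, SE 0.09, limma adjusted p = 4.0e-05). In all 5 genes the lowest Gr1hi array was above the highest Gr1lo array, and in each of them Gr1lo replicate 2 was the highest Gr1lo array. Oas2 was 2.61-fold higher in Gr1hi. Oasl1, known in mice to hold back translation of Irf7, was 2.18-fold higher. Oas1a belongs to a group of close copies, and its probe set may not be specific to it.

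Direct antiviral effectors were called higher in Gr1hi for 8 of 11 genes, against 18.5% of all genes tested, and Rsad2, Isg20 and Trim21 were not called. Mx1, a dynamin-like GTPase that blocks influenza viruses, read 10.24, 10.37, 10.22 and 10.16 in Gr1hi and 8.94, 9.08, 8.79 and 8.64 in Gr1lo. This was the largest difference of the group, at 2.61-fold (log2 difference 1.38, SE 0.09, limma adjusted p = 6.3e-07). Cmpk2, a mitochondrial nucleotide kinase, was 2.08-fold higher and the virion tether Bst2 1.92-fold higher. Trim30a, Sp100 and Samd9l were 1.86-fold, 1.80-fold and 1.67-fold higher. Samd9l was even between sorts, with arrays from 11.10 to 11.19 in Gr1hi and from 10.33 to 10.49 in Gr1lo. The RNA-activated kinase Eif2ak2 (PKR) was 1.46-fold higher in Gr1hi. The RNA editing enzyme Adar was called at 1.28-fold from its brightest probe set, at 9.48 to 9.80 in Gr1hi and 9.14 to 9.47 in Gr1lo. The other Adar probe sets differed by 0.10 and -0.13 and were not called, and the mean of all 3 was not called either (difference 0.11, adjusted p = 0.30; 0.0033 to 0.30 over all alternatives).

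Rsad2 (viperin), which makes a chain-terminating nucleotide, lies beside Cmpk2 on chromosome 12 and was far less even than its neighbour. Its brightest probe set read 10.93, 10.52, 10.44 and 10.22 in Gr1hi, against 10.60, 9.79, 8.91 and 10.14 in Gr1lo. Gr1lo replicate 1 lay among the Gr1hi arrays and Gr1lo replicate 3 lay well below all others, so the difference of 0.67 (95% interval 0.04 to 1.30, limma adjusted p = 0.10) was not called. Without Gr1lo replicate 1 it was 0.92 and called (adjusted p = 0.022), and without Gr1lo replicate 3 it was 0.35 and not called (adjusted p = 0.21; 0.019 to 0.23 over all alternatives). One of the other 2 Rsad2 probe sets was called, at a difference of 0.65. The exonuclease Isg20 had the same order of arrays within each subset, at 10.09, 9.73, 9.56 and 9.25 in Gr1hi and 9.95, 9.54, 8.80 and 9.47 in Gr1lo, apart from replicates 2 and 4 of Gr1lo. It was not called (difference 0.22, 95% interval -0.27 to 0.70, adjusted p = 0.52), and single arrays decided the size: it was 0.39 without Gr1lo replicate 1, 0.36 without Gr1hi replicate 4, 0.076 without Gr1hi replicate 1 and 0.0075 without Gr1lo replicate 3. Platelet and red cell markers, the only lists compared in this way, had the same highest and lowest arrays as Rsad2 and Isg20 in both subsets. This held for 8 of 8 and 2 of 4 tested markers. The platelet chemokine Pf4, named after its values were seen, read 10.29, 9.49, 9.66 and 8.96 in Gr1hi and 10.69, 9.81, 9.18 and 9.98 in Gr1lo, and the part of such cells in the spread of Rsad2 and Isg20 was not tested. Trim21, a cytosolic antibody receptor, read 9.34, 9.31, 9.20 and 9.33 in Gr1hi and 8.99, 9.17, 9.26 and 9.13 in Gr1lo, and the subsets overlapped. Its difference of 0.16 (95% interval -0.0010 to 0.31, adjusted p = 0.13) was not called and was 0.082 with the mean of its probe sets.

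**Figure D3:**
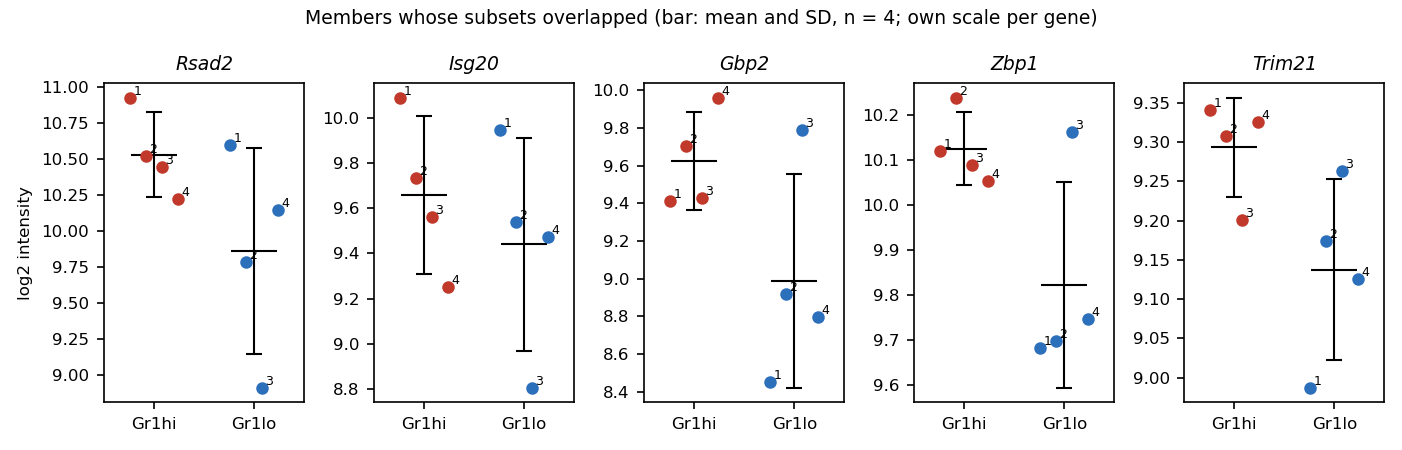
Log2 intensity of Rsad2, Isg20, Gbp2, Zbp1 and Trim21 on each array (points, numbered by replicate), with mean and SD per subset (n = 4 each), Gr1hi left of Gr1lo and a separate vertical scale for each gene. In Rsad2 and Isg20 Gr1lo replicate 1 is the highest Gr1lo array and replicate 3 the lowest, and in Gbp2, Zbp1 and Trim21 replicate 3 is the highest and replicate 1 the lowest.

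Parp9 and Dtx3l form a complex that modifies ubiquitin and histones, and Parp14 is a further ADP-ribosyltransferase encoded beside them on chromosome 16. These 3 genes moved by nearly the same small amount, from 1.33-fold to 1.38-fold, and all were called. Parp9 read 10.50, 10.52, 10.51 and 10.34 in Gr1hi and 9.82, 10.04, 10.02 and 10.11 in Gr1lo (log2 difference 0.47, SE 0.08, limma adjusted p = 6.2e-04). Dtx3l read 10.44, 10.48, 10.39 and 10.37 in Gr1hi and 9.82, 10.03, 10.17 and 10.01 in Gr1lo (0.41, SE 0.08). In both genes Gr1lo replicate 1 was the lowest array, and neither overlapped. Among genes of less settled role, Xaf1, a partner of the apoptosis inhibitor XIAP, was 2.18-fold higher in Gr1hi, at 10.24, 10.58, 10.46 and 10.21 against 9.02, 9.52, 9.24 and 9.23 in Gr1lo. The endoplasmic reticulum ATPase Tor3a was 2.04-fold and the chaperone Rtp4 1.93-fold higher. The other 2 Tor3a probe sets differed by 0.52 and 0.64, under 2-fold, and were also called. Ifi35 was the smallest of these, at 11.54, 11.76, 11.73 and 11.54 in Gr1hi and 11.04, 11.45, 11.17 and 11.24 in Gr1lo (1.33-fold).

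The sensors of foreign nucleic acid were called higher in Gr1hi for 5 of 5 genes, against 18.5% of all genes tested. The RNA helicases Dhx58 (LGP2), Ddx58 (RIG-I) and Ifih1 (MDA5) were 2.03-fold, 1.70-fold and 1.63-fold higher, all without overlap. Ifi204, of the family of DNA-binding p200 proteins, read 9.40, 9.96, 9.85 and 9.67 in Gr1hi and 8.47, 8.80, 9.04 and 8.50 in Gr1lo (2.03-fold, SE 0.14 on the log2 scale, limma adjusted p = 2.1e-04). It has close copies in the genome, so its signal may not be its own alone. Zbp1, the sensor of Z-form nucleic acid that can start necroptosis, read 10.12, 10.24, 10.09 and 10.05 in Gr1hi and 9.68, 9.70, 10.16 and 9.75 in Gr1lo. Its call was marginal (difference 0.30, adjusted p = 0.044) and was lost when any one of the 4 Gr1hi arrays or Gr1lo replicates 1, 2 or 4 was left out (adjusted p = 0.056 to 0.12). Gr1lo replicate 3 lay among the Gr1hi arrays, and without it the difference was 0.42 (adjusted p = 0.0012). Over all alternatives the adjusted p of Zbp1 ran from 0.0012 to 0.17.

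Stat2, the signalling factor among the members, was 1.70-fold higher in Gr1hi. It read 8.62, 8.88, 8.81 and 9.07 in Gr1hi against 7.82, 8.27, 8.15 and 8.08 in Gr1lo (log2 difference 0.77, SE 0.11, limma adjusted p = 2.4e-04). Its second probe set gave 0.76. The subsets did not overlap at either probe set.

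The interferon-induced GTPases Gbp2, Gbp3 and Ifi47 act at membranes of pathogen-containing vacuoles and are known to respond to interferon gamma as well as to type I interferons. Gbp3 read 9.57, 9.80, 9.73 and 10.00 in Gr1hi against 7.67, 8.14, 8.57 and 8.02 in Gr1lo, a 3.20-fold difference (log2 difference 1.68, SE 0.16, limma adjusted p = 9.7e-06). Ifi47 was 2.35-fold higher in Gr1hi. Gbp2, next to Gbp3 on chromosome 3, read 9.41, 9.70, 9.43 and 9.96 in Gr1hi and 8.45, 8.92, 9.79 and 8.80 in Gr1lo, where replicate 3 alone reached the Gr1hi arrays. It was not called (difference 0.64, 95% interval 0.12 to 1.15, adjusted p = 0.060). Without Gr1lo replicate 3 the difference was 0.90 and was called (adjusted p = 8.6e-04; 8.6e-04 to 0.16 over all alternatives). A second Gbp2 probe set was called at 0.74.

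The Ifitm genes encode small membrane proteins that hinder fusion of viruses with the cell, and they lie in 1 cluster on chromosome 7. None was called higher in Gr1hi. Ifitm1 read 8.43, 8.65, 8.78 and 8.24 in Gr1hi, against 9.37, 10.04, 9.53 and 9.81 in Gr1lo, so that all Gr1hi arrays lay below all Gr1lo arrays. It fell by 1.16 on the log2 scale in Gr1hi (SE 0.15, limma adjusted p = 9.9e-05), which is 2.24-fold, and it was the sole member called higher in Gr1lo, as it was under each of the 20 alternatives. Ifitm2 read 12.59, 12.59, 12.57 and 12.41 in Gr1hi and 12.49, 12.62, 12.30 and 12.36 in Gr1lo, with overlap (difference 0.09, 95% interval -0.08 to 0.27, adjusted p = 0.44; 0.15 without Gr1lo replicate 2 and 0.046 without Gr1lo replicate 3). Ifitm3, the member best known for restricting influenza virus, read 13.77, 13.78, 13.84 and 13.74 in Gr1hi and 13.67, 13.65, 13.67 and 13.64 in Gr1lo. Its subsets did not overlap, yet the difference was 0.13 (95% interval 0.0044 to 0.25, adjusted p = 0.11). Ifitm6 read 12.62, 12.63, 12.67 and 12.69 in Gr1hi and 12.49, 12.51, 12.57 and 12.39 in Gr1lo, again without overlap (0.16, 95% interval 0.03 to 0.30, adjusted p = 0.068). With variances moderated by a trend and robustly, Ifitm3 and Ifitm6 were called (adjusted p = 0.0080 for Ifitm3, where the alternatives gave 0.0080 to 0.23, and 0.014 for Ifitm6, where they gave 0.014 to 0.19). The upper bounds of the intervals of Ifitm2, Ifitm3 and Ifitm6 were 0.25 to 0.30, and the lower bounds of the 3 Ifit genes were 1.64 to 1.82. These Ifitm genes were much brighter, with Gr1hi means of 12.54, 13.78 and 12.65, against 8.71, 9.30 and 10.18 for Ifit1, Ifit2 and Ifit3. Whether brightness affects the size of the differences was not tested.

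**Figure D4:**
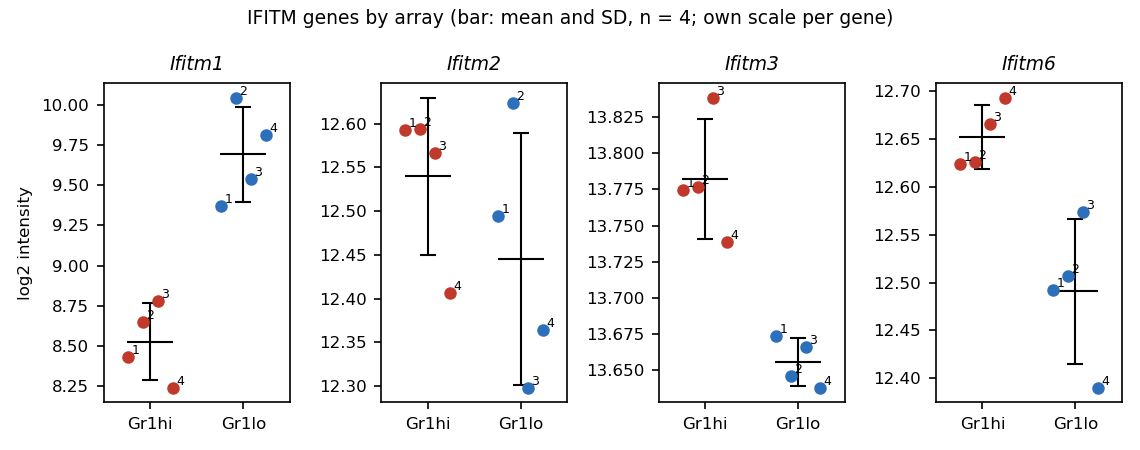
Log2 intensity of the 4 Ifitm genes on each array (points, numbered by replicate), with mean and SD per subset (n = 4 each), Gr1hi left of Gr1lo and a separate vertical scale for each gene. Ifitm1 is lower in all Gr1hi arrays by about 1 log2 unit, whereas the scales of the other 3 genes span less than 0.4.

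**Figure D5:**
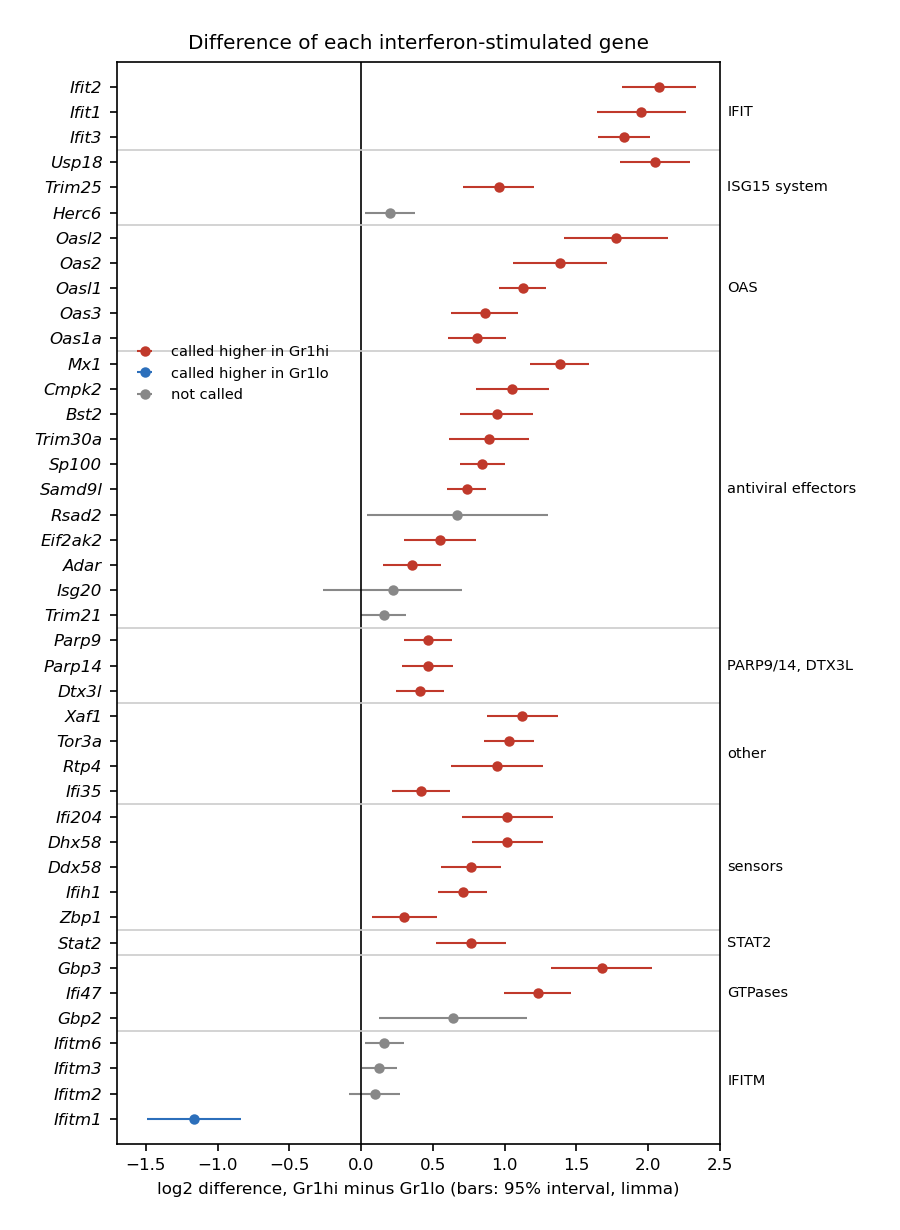
Log2 difference Gr1hi minus Gr1lo (horizontal axis) with its 95% limma interval for each of the 42 genes, grouped by role. Of the points, 33 are called higher in Gr1hi, 1 (Ifitm1) is called higher in Gr1lo and 8 are not called.

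At the level of single probe sets, 57 of the 71 tested were called higher in Gr1hi, against 15.9% of all probe sets tested, and 1 was called higher in Gr1lo, against 15.2%. Among the 57, 1 Herc6 probe set passed the filter through the Gr1hi arrays alone, so it had to differ. Of the 19 genes with more than 1 tested probe set, 18 had all of them pointing the same way, Adar being the exception. All probe sets were called in 13 of these genes, some in 5 and none in Trim21. Members that lie within 500 kb of each other made up 7 clusters with 19 genes (RefSeq gene table, GRCm38.p6). In the Ifit, Oas, Oasl and Parp9 clusters every member was called higher in Gr1hi, whereas in the Rsad2, Gbp and Ifitm clusters the calls differed between neighbours.

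Within each subset the members also differed together between sorts. In Gr1hi replicate 2, 36 of the 42 genes lay above the Gr1hi mean, and in Gr1lo replicate 2, 35 of 42 lay above the Gr1lo mean. In Gr1hi replicate 4, 11 genes lay above the Gr1hi mean, and in Gr1lo replicate 1, 9 lay above the Gr1lo mean. The same counts over all genes tested were not taken, so whether these shifts are particular to the members was not tested. Averaged over the 42 genes, these deviations from the own subset's mean ran from -0.09 to 0.10 in Gr1hi and from -0.11 to 0.16 in Gr1lo on the log2 scale. This spread of the average over genes was thus small beside the median difference of 0.83 between subsets. Single genes could spread more, with a within-subset SD of 0.55 for Rsad2 beside its difference of 0.67, and 0.42 for Isg20 beside 0.22.

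Genes around the pathway were called in both directions. Of 42 listed ligands, receptors, signalling proteins, interferon regulatory factors, inhibitors and upstream adaptors, 32 were tested, and their median difference was -0.02. Of these 32, 8 were called higher in Gr1hi and 9 higher in Gr1lo, against 18.5% and 14.1% of all genes tested. This list pools inhibitors and parts of other cytokine receptors with the type I receptor, kinases and factors; of the type I components, set apart after their values were seen, Ifnar1, Tyk2 and Irf9, like the member Stat2, were called higher in Gr1hi, and Ifnar2 and Jak1 were not called. Of the ligands, Ifnb1 and Ifna1 passed the filter with means close to the table median of 6.36 (6.44 and 6.56 in Gr1hi, 6.29 and 6.60 in Gr1lo) and were not called. Ifna2, Ifna4 and Ifng did not pass it. The receptor chain Ifnar1 was 1.25-fold higher in Gr1hi (adjusted p = 0.017), with overlap between subsets. That call was lost without Gr1lo replicate 4, without replicate 1 of both subsets, at a threshold of 0.01 and with the mean of its probe sets, where the difference was 0.16 (adjusted p = 0.38; 0.0046 to 0.38 over all alternatives). Ifnar2 differed by -0.07 (adjusted p = 0.49) with its brightest probe set and was called in the other direction with the mean of its probe sets (0.20, adjusted p = 0.019), so its direction is not settled. Ifngr1 and Il10rb, which belong to the interferon gamma and lambda receptors, were 1.35-fold and 1.39-fold higher in Gr1lo.

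The kinase Tyk2 was 1.44-fold and Irf9 1.35-fold higher in Gr1hi (limma adjusted p = 3.0e-05 and 7.7e-04), Tyk2 with a log2 difference of 0.53 that was 0.32 with the mean of its probe sets, while Stat3 and Jak2 were 1.39-fold and 1.28-fold higher in Gr1lo. Irf7, the factor that amplifies interferon production and is itself interferon-induced, was 1.88-fold higher in Gr1hi, with means of 10.79 ± 0.15 in Gr1hi and 9.88 ± 0.22 in Gr1lo (log2 intensity, SD, n = 4 each). Irf8 was 1.51-fold higher in Gr1hi and Irf3 1.28-fold higher in Gr1lo. The Irf3 call rests on a probe set that can match several transcripts and was lost without such probe sets (difference -0.18, adjusted p = 0.067; 9.1e-04 to 0.067 over all alternatives). Of the 6 inhibitors, 3 were called higher in Gr1lo and none in Gr1hi, against 14.1% and 18.5% of all genes tested. The smallest of these 3 differences was 1.17-fold (limma adjusted p = 0.038). Socs3, which blocks cytokine receptor kinases, stood at 10.11 ± 0.16 in Gr1hi and 11.36 ± 0.05 in Gr1lo, and the phosphatase Ptpn6 was 1.38-fold higher in Gr1lo. Usp18, the member that restrains signalling at Ifnar2, was higher in Gr1hi. Upstream of interferon production, the kinase Ikbke was 2.16-fold and the adaptor Ticam1 1.28-fold higher in Gr1hi, and the RNA receptor Tlr7 was 1.45-fold higher in Gr1lo.

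Of 50 other genes known to respond to interferons, 40 were tested, with a median difference of 0.41. Of these 40, 21 were called higher in Gr1hi and 6 higher in Gr1lo, against 18.5% and 14.1% of all genes tested. Slfn1 was 4.89-fold and the chemokine Cxcl10 4.80-fold higher in Gr1hi. In the opposite direction, Cd274, the checkpoint ligand PD-L1, stood at 7.11 ± 0.08 in Gr1hi and 9.72 ± 0.29 in Gr1lo, a 6.13-fold difference (limma adjusted p = 3.9e-08). The guanylate-binding protein Gbp8 was at least 1.39-fold higher in Gr1lo, since its Gr1hi mean lay below the table median. It passed the filter through the Gr1lo arrays alone, so it had to differ, and it is 1 of the 6.

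The monocyte receptor Csf1r read 13.86 in Gr1hi and 14.06 in Gr1lo, and Ccr2 and Spn, known to mark the subsets, differed by 1.84 and -1.95. Markers of other blood cells were measured as well, and some differed between subsets. For the counts below, 18.5% of all genes tested were called higher in Gr1hi and 14.1% higher in Gr1lo. Of 8 tested neutrophil markers 3 were called higher in Gr1hi, Lcn2 among them after passing the filter through the Gr1hi arrays alone, and none in Gr1lo, and their summed intensity was 905 to 1505 in Gr1hi arrays and 600.02 to 917 in Gr1lo arrays. Plasmacytoid dendritic cells, a strong source of type I interferon, had 8 tested markers with summed intensities of 3752 to 4639 in Gr1hi and 3670 to 4070 in Gr1lo. Tcf4 and the interferon-stimulated Bst2 and Irf7 of that list were called higher in Gr1hi and Lair1 higher in Gr1lo. These genes were the brightest of the list and make up most of the sums, and Bst2 is also a member. The sums therefore do not measure plasmacytoid dendritic cells alone. The defining marker Siglech of that list lay near the table median (6.40 in Gr1hi and 6.46 in Gr1lo), and Ccr9 did not pass the filter. Conventional dendritic cell markers were called higher in Gr1hi for 3 of 7 and in Gr1lo for 1 (summed intensity 2748 to 3172 in Gr1hi and 2592 to 3129 in Gr1lo). B cell markers were called higher in Gr1hi for 3 of 7 and in Gr1lo for 1 (1120 to 1646 in Gr1hi and 1235 to 1570 in Gr1lo). Natural killer cell markers were higher in Gr1lo for 2 of 4 (384 to 561 in Gr1hi and 759 to 990.4 in Gr1lo), and none of the 8 tested T cell markers was called (1035 to 1166 in Gr1hi and 1064 to 1260.0 in Gr1lo). Platelet markers and the red cell markers Alas2 and Slc4a1 were uneven between sorts. The red cell markers Klf1 and Rhd were dimmer and more even (means of 6.76 and 6.50 in Gr1hi, 6.79 and 6.50 in Gr1lo). Some neutrophil and B cell markers were uneven too. S100a8 and Ms4a1 were highest in replicate 1 of both subsets (8.33 and 7.84 in Gr1hi, 7.46 and 6.91 in Gr1lo), whereas Elane and Pax5 of the same lists were more even. No platelet or red cell marker was called. The summed intensity of 8 platelet markers was 2171 to 5184 in Gr1hi and 2469 to 6669 in Gr1lo, and that of 4 red cell markers, mostly Alas2, was 1045 to 3146 in Gr1hi and 1120 to 4628 in Gr1lo. The part of such cells in the differences above was not tested.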

How the data were processed

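Gene expression was measured on 8 Affymetrix arrays, 4 per subset. The deposited values were intensities per probe set on a linear scale, from 8.64 to 27145, already normalized by the authors. Per the submitters' processing notes GCRMA and MAS5 were used, with no version or role, so which made these values is not given in the sources used here. Per the labels' protocols RNA was amplified with a lengthened in vitro transcription. Array medians ran from 80.6 to 83.1; arrays give no depth, so their number limits precision.

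The log2 of each deposited intensity was used, without a pseudocount. The 64 controls were left out. Of 45037 probe sets, 34945 had 1 gene symbol, 932 several and 9160 none. A probe set was tested if above the median of the table (intensity 81.9) in at least 4 arrays. limma 3.58.1 in R 4.3.3 gave two-sided tests over 22831 probe sets with Benjamini-Hochberg adjustment; intervals are at 95% and unadjusted. A gene was represented by its brightest tested probe set with 1 symbol. The workflow was tested on simulated data. Per-array values are given for the members of largest and smallest fold in each role group and for all not called or higher in Gr1lo; other lists name up to 2 called genes each way. The members and lists were chosen with earlier results of these data known. The labels name no batch.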

Additional observations from a re-analysis of the deposited data

Results flagged for a closer look

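Each member's 4 values within a subset were screened for 1 array far from the other 3, by Dixon's criterion. Of 84 such groups 5 stood out, and chance alone gives about 1 in 20. Gr1hi replicate 4 was low for Dhx58 (9.54, against 9.91 for the nearest array), Parp9 (10.34, against 10.50) and Ifitm2 (12.41, against 12.57). Gr1lo replicate 3 was high for Zbp1 (10.16, against 9.75), and Gr1lo replicate 2 was high for Usp18 (7.85, against 7.44).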

How the results depend on the processing

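The 42 genes gave 28 to 36 calls toward Gr1hi and 1 toward Gr1lo under all 20 alternatives, and their median difference ran from 0.73 to 0.88. The 28 calls came without probe sets ending in _x_at, _s_at or _a_at, which left 35 of the genes measured. Of the 42 genes, 35 kept their side of the threshold throughout; the 7 others were Herc6, Rsad2, Adar, Zbp1, Gbp2, Ifitm3 and Ifitm6, and none changed sign. Without those probe sets 4711 probe sets were called in all, 5 pathway genes were higher in Gr1hi and 2 of the other interferon-responsive genes were higher in Gr1lo. At a threshold of 0.01, 5 pathway genes were higher in Gr1hi. Ifnar2 reversed to 0.20 with the mean of its probe sets, and the cause was not tested. The mean of probe sets gives no count of probe sets. With the replicate number as a block, 35 members were called higher in Gr1hi and 7164 probe sets were called in all; Rsad2 and Gbp2 gained a call (adjusted p = 0.019 and 0.032). The numbers are not shown to pair the sorts, since deviations of same-numbered arrays correlated at 0.27, 0.34, -0.03 and -0.10. The largest correlation was 0.55, between Gr1hi replicate 4 and Gr1lo replicate 3, and Gr1hi replicate 3 with Gr1lo replicate 4 gave 0.30. Whether arrays of different numbers share a sort was not tested, and the main test treats all arrays as unpaired.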

Other observations

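Isg15 is absent from the counts above because its probe set is annotated jointly to Isg15 and Gm9706. That probe set, chosen after its value was seen, read 8.92, 9.37, 8.98 and 8.61 in Gr1hi and 7.49, 7.69, 7.15 and 7.84 in Gr1lo, a 2.70-fold difference without overlap (limma adjusted p = 4.5e-05). Chosen likewise, a probe set annotated jointly to Ifi204 and 3 other genes of its family was 2.78-fold higher in Gr1hi, with means of 11.65 ± 0.19 in Gr1hi and 10.17 ± 0.12 in Gr1lo (log2 intensity, SD, n = 4 each).

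Members were uneven in opposite ways among the Gr1lo sorts, as noticed after their values were seen. Gr1lo replicate 1 was the highest and replicate 3 the lowest Gr1lo array for Rsad2 (10.60 and 8.91) and Isg20 (9.95 and 8.80). The same held for the platelet marker Pf4 (10.69 and 9.18) and the red cell marker Alas2 (11.94 and 9.65). It did not hold for the red cell markers Klf1 and Rhd, whose highest Gr1lo array was replicate 3 (6.83 and 6.61). For Gbp2 (8.45 and 9.79), Gbp3 (7.67 and 8.57), Ifi47 (10.17 and 10.68) and Zbp1 (9.68 and 10.16) replicate 1 was the lowest and replicate 3 the highest. The within-subset SD was 0.55 for Rsad2, 0.44 for Gbp2 and 0.42 for Isg20, the 3 widest of the 42 genes, and 0.03 for Ifitm3, the narrowest.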
